A study of Arabidopsis thaliana with 12 samples.

Results

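Small RNA reads of 9 transcription factor genes that are targets of the microRNAs miR172 and miR164 were followed across 4 Arabidopsis thaliana genotypes. The genes were chosen by locus identifier, 9 of the 30926 genes in the count table. The 5 miR172 targets are the AP2-like genes AP2 (AT4G36920), TOE1 (AT2G28550), TOE2 (AT5G60120), SMZ (AT3G54990) and SNZ (AT2G39250). The 4 miR164 targets are the NAC genes CUC1 (AT3G15170), CUC2 (AT5G53950), NAC1 (AT1G56010) and ORE1 (AT5G39610).

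RNA shorter than 200 nt was taken from the aerial parts of 18-day-old greenhouse plants, and each genotype had 3 libraries. The triple mutant rdr6-11 ein5-1 ski2-3 carries mutations in all 3 genes, the double mutant ein5-1 ski2-3 in EIN5 and SKI2, and rdr6-11 in RDR6 alone, while Col-0 is the wild type without them. The mutant plants carry their alleles in every cell, and the tissue is a mixture of cell types, so fewer cells of a type and less RNA per cell cannot be told apart. The series' design text calls the libraries biological replicates. Replicates 1 and 2 of ein5-1 ski2-3 agreed within sampling noise over protein-coding genes (mean chi-square of 1.018 per gene, p = 0.14), with a small excess over all genes of distinct profile (1.043, p = 0.001013). Replicates 2 and 3 of Col-0 also agreed over protein-coding genes (mean chi-square 1.015) but stood further apart over all genes (1.327), and were kept as separate samples. The ein5-1 ski2-3 pair was summed and counted as 1 sample, so n is 2 in ein5-1 ski2-3 and 3 in the other genotypes, and p-values measure the spread between these samples, which may be technical.

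EIN5, or XRN4, trims uncapped cytoplasmic RNA from the 5' end, and SKI2 is a helicase that feeds RNA to the exosome for decay from the 3' end. When a plant miRNA cuts its target, the 3' fragment is a substrate of the 5' route and the 5' fragment of the 3' route. RDR6 copies RNA into double-stranded RNA, from which Dicer-like enzymes make secondary siRNAs. The AP2-like proteins repress flowering and AP2 itself specifies outer floral organs; miR172 lowers their output as plants age. CUC1 and CUC2 set organ boundaries, NAC1 acts in auxin-driven lateral root formation and ORE1 promotes leaf senescence, all under miR164.

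The mature miRNAs and their sites in the members are shown because every member is in the set through its site. They were read from the reference genome (TAIR10.1 from RefSeq, the nuclear assembly of TAIR10), 5' to 3', with the seed (bases 2 to 8) of each miRNA in capitals. The MIR172 genes share 1 seed, and miR172a has the same mature sequence as miR172b-3p, while miR172c has that of miR172d-3p. The MIR164 genes also share 1 seed, and miR164a is identical to miR164b-5p.
ath-miR172a: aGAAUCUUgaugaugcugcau
ath-miR172c: aGAAUCUUgaugaugcugcag
ath-miR172e-3p: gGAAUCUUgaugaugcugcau
ath-miR164a: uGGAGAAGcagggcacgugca
ath-miR164c-5p: uGGAGAAGcagggcacgugcg

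In each member the site below is the 21-base transcript window with the least mispairing to a mature miRNA of its family, and capitals mark the bases that do not form a Watson-Crick pair with that miRNA. The AP2 and TOE2 sites had 0 mismatches and 1 G:U pair, against miR172c and miR172a. TOE1 (to miR172c), SMZ and SNZ (to miR172e-3p) had 1 mismatch each, TOE1 and SMZ with 1 G:U pair and SNZ with 2. All 5 share a G that forms a G:U pair within the miR172 seed.
AP2: ctgcagcatcatcaGgattct
TOE1: cAgcagcatcatcaGgattct
TOE2: atgcagcatcatcaGgattct
SMZ: TtgcagcatcatcaGgattcc
SNZ: TtgTagcatcatcaGgattcc
CUC1: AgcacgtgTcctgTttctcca
CUC2: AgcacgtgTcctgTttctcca
NAC1: AgcacgtAccctgcttctcca
ORE1: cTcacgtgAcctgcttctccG

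The CUC1 and CUC2 sites are identical, with 1 mismatch and 2 G:U pairs to miR164a. NAC1 had 2 mismatches to miR164a, and ORE1 had 2 mismatches and 1 G:U pair to miR164c-5p. In all 9 members bases 10 and 11 of the miRNA, between which plant miRNAs direct cleavage, were paired. The TOE1 site lies at chr2:12226233-12226253 on the minus strand, in the coding sequence of exon 9 of 9, and is present in 6 of 6 annotated transcripts. The AP2 site (chr4:17403019-17403039, plus strand, exon 11 of 11) and the TOE2 site (chr5:24210889-24210909, plus strand, exon 9 of 10) are coding as well. The SMZ site (chr3:20373774-20373794, minus strand) is coding and present in 1 of 2 transcripts. The SNZ site (chr2:16389066-16389086, minus strand) lies in the 3' UTR. The CUC1 (chr3:5111137-5111157, plus strand), CUC2 (chr5:21902301-21902321, minus strand), NAC1 (chr1:20947142-20947162, minus strand) and ORE1 (chr5:15858797-15858817, minus strand) sites are all in the coding sequence of exon 3 of 3. The table holds 1 count per gene, so where along a transcript the reads lie relative to these sites is not known.

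Counts per library summed to between 2358724 and 2909767, of which protein-coding genes held 6.36% to 11.7%. The 5 leaf markers summed to between 1879 and 2728 counts per library, whereas the 6 floral markers summed to at most 4 and the 3 shoot meristem markers to at most 3. Of the 5 root markers 1, PYK10, reached 10 counts. Each of the mutated genes had at most 7 counts in any library, too few to check the genotype labels. CUC1 and CUC2 act mainly at meristem boundaries and AP2 in flowers as well as leaves. No floral or meristem marker reached 10 counts in a library. Small RNA reads of a marker gene do not measure how much of its tissue was present, so tissue content was not tested. Strand and the handling of reads with several matches are not stated, so reads of overlapping genes cannot be told apart; SMZ overlaps AT3G54980 and NAC1 overlaps AT1G56000.

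Together the 9 members had 12, 20 and 21 counts in replicates 1 to 3 of the triple mutant, 67, 56 and 51 in ein5-1 ski2-3, 7, 10 and 10 in rdr6-11, and 13, 5 and 7 in Col-0. Their summed count was highest in ein5-1 ski2-3, whose libraries did not overlap those of any other genotype. TOE1 alone gave 66.7% of the members' 174 counts in ein5-1 ski2-3 (Wilson 95% interval 59.4% to 73.2%), and 28.0% of their 25 counts in Col-0 (14.3% to 47.6%). Without TOE1 and TOE2, the other 7 members together had 23 counts in the triple mutant (exact 95% Poisson interval 14.6 to 34.5), 24 in ein5-1 ski2-3 (15.4 to 35.7), 18 in rdr6-11 (10.7 to 28.4) and 11 in Col-0 (5.49 to 19.7). Intervals and floors on counts cover counting error only, since the reads carry no molecular identifiers.

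**Figure D1:**
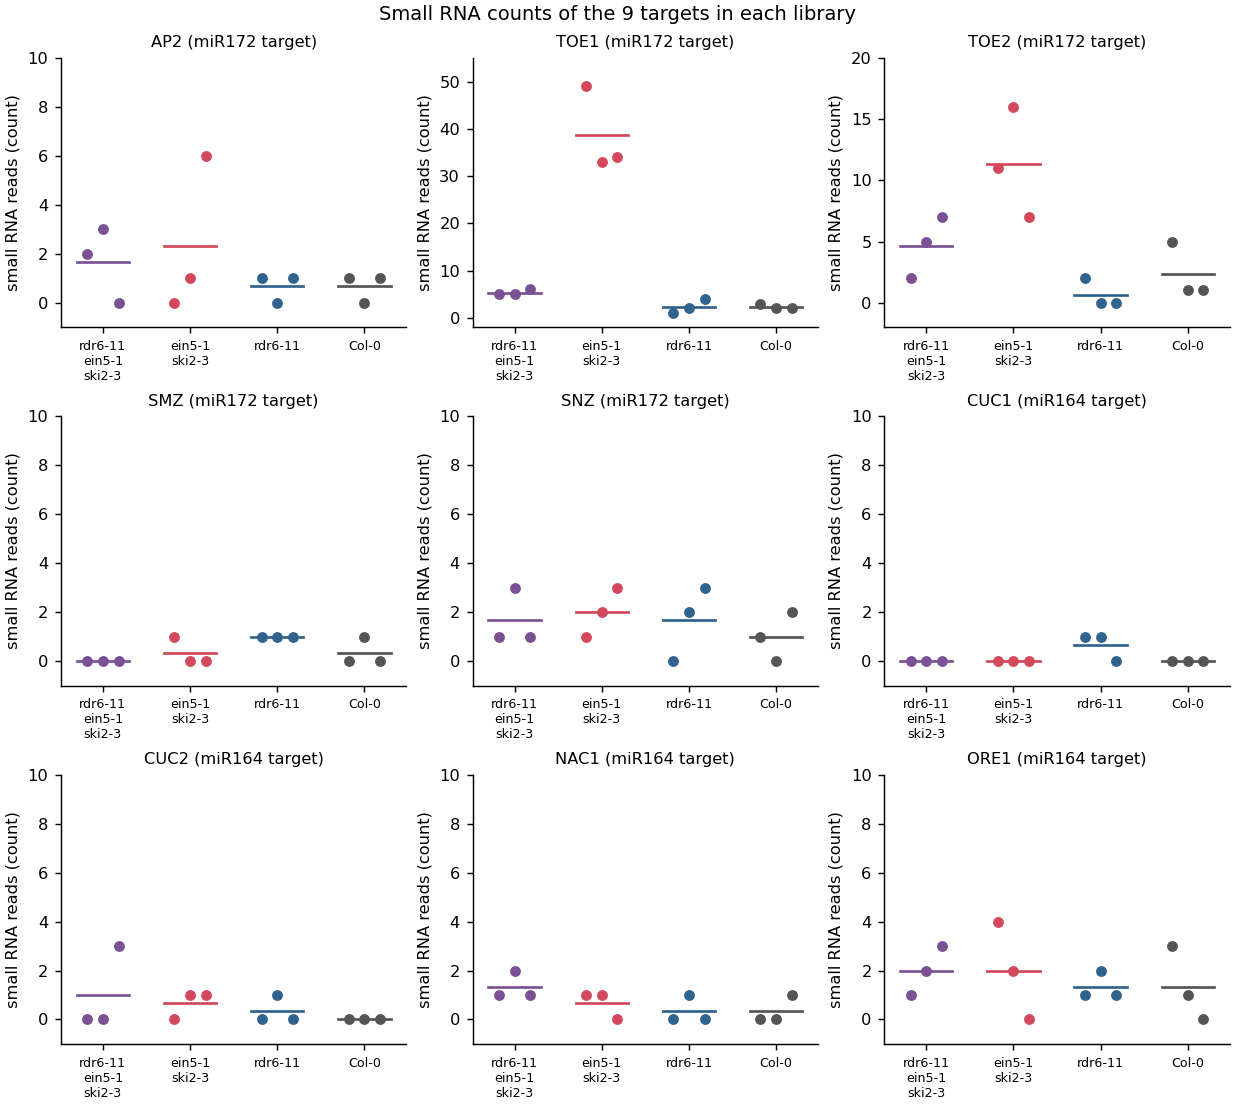
Raw small RNA counts (y axis, reads; the scale differs for TOE1 and TOE2) of the 9 targets in each library of the 4 genotypes (x axis); points are replicates 1 to 3 from left to right and lines are means. TOE1 had 33 to 49 counts in ein5-1 ski2-3 and at most 6 in any other library, while 7 of the targets stayed at or below 6 counts everywhere.

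The loss of both decay routes was examined in ein5-1 ski2-3 against Col-0. TOE1, a floral repressor that holds plants in the juvenile phase, had 49, 33 and 34 counts in ein5-1 ski2-3, against 3, 2 and 2 counts in Col-0. All ein5-1 ski2-3 libraries lay above all Col-0 libraries. In TMM-normalised read counts scaled to library size (CPM), TOE1 averaged 10.3 ± 1.60 in ein5-1 ski2-3 (SD, n = 2), against 1.16 ± 0.256 in Col-0 (SD, n = 3). TOE1 rose 8.82-fold in ein5-1 ski2-3, a log2 change of 3.14 ± 0.40 (SE; 95% interval 2.34 to 3.94; adjusted p = 3.16e-09, edgeR's quasi-likelihood test with Benjamini-Hochberg adjustment over 7219 genes). Scaled to total counts only, the fold was 15.3. The median log2 change of all tested genes was 0.29, and 1.1 by total counts. Protein-coding genes as a whole held 10.7% to 11.7% of the counts in ein5-1 ski2-3, against 6.36% to 6.47% in Col-0, and the part of this in the TOE1 value was not tested. Of the 5 leaf markers, which summed to 1968 to 2325 counts in ein5-1 ski2-3 and 2114 to 2363 in Col-0, 4 were lower and 1 higher in ein5-1 ski2-3 (median log2 change -1.07; by total counts 3 lower and 2 higher, median -0.26). Their part was not tested either.

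TOE1 was the only one of the 9 members with enough counts to pass the filter, so 1 of 1 tested was higher, where 30.5% of all genes tested were called higher and 18.8% lower (49.3% in either direction). It passed through its counts in ein5-1 ski2-3 alone, the genotype where it was high, so this count by itself says nothing about the members. With no filter on low counts all 9 were tested among 29938 genes, of which 8.79% were called higher (12.4% in either direction). In that fit TOE1 rose by 3.23 ± 0.43 on the log2 scale (SE; edgeR quasi-likelihood adjusted p = 4.14e-12), and the other 8 members were not called. In the authors' deposited table the TOE1 ratio of ein5-1 ski2-3 over Col-0 is 8.92, with an adjusted p of 5.81e-07.

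TOE2, a floral repressor whose role overlaps that of TOE1, had 11, 16 and 7 counts in ein5-1 ski2-3, against 5, 1 and 1 counts in Col-0. The groups did not overlap, but the lowest ein5-1 ski2-3 library and the highest Col-0 library differed by 2 counts. Summed over libraries and per total count, TOE2 was 4.76 times as high in ein5-1 ski2-3 (exact 95% counting interval 2.08 to 12.7). Scaled by TMM without the filter, the log2 change was 1.48 ± 0.57 (SE), which did not pass the test (edgeR quasi-likelihood adjusted p = 0.0724). It passed by total counts (log2 change 2.18, edgeR adjusted p = 0.0007) and when scaled to MIR genes (1.75, adjusted p = 0.0294). Leaving out Col-0 replicate 1, with its 5 counts, gave a log2 change of 2.44 and an adjusted p of 0.0370 by edgeR. Without ein5-1 ski2-3 replicate 3 the log2 change was 1.81 and the adjusted p 0.0213, and without the summed replicates 1 and 2 of ein5-1 ski2-3 it was 0.69 and the adjusted p 0.775 by edgeR. In the authors' deposited table the ratio of ein5-1 ski2-3 over Col-0 for TOE2 is 2.67, with an adjusted p of 0.554.

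AP2 had 0, 1 and 6 counts in ein5-1 ski2-3, against 1, 0 and 1 counts in Col-0. The groups overlapped, and 6 of the 7 counts in ein5-1 ski2-3 came from replicate 3. Its pooled ratio was 3.43 with a counting interval of 0.653 to 33.8. SNZ, a floral repressor whose site is in the 3' UTR, had 1, 2 and 3 counts in ein5-1 ski2-3, against 1, 0 and 2 counts in Col-0, a ratio of 1.96 (0.418 to 12.1). SMZ, its paralogue, had 1, 0 and 0 counts in ein5-1 ski2-3, against 0, 1 and 0 counts in Col-0. For these 3 genes a difference was not detectable at this depth, and the intervals hold both a rise and a fall.

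Among the miR164 targets, ORE1 had 4, 2 and 0 counts in ein5-1 ski2-3, against 3, 1 and 0 counts in Col-0, a ratio of 1.47 (0.348 to 7.08). The groups overlapped. CUC1 had 0 counts in every library of both genotypes. By total counts without TMM, 0 counts over the 3 libraries allow up to 0.375 CPM in ein5-1 ski2-3 and 0.383 CPM in Col-0. CUC2 had 0, 1 and 1 counts in ein5-1 ski2-3, against 0 in all 3 Col-0 libraries. NAC1 had 1, 1 and 0 counts in ein5-1 ski2-3, against 0, 0 and 1 counts in Col-0. For none of the 4 was a difference detectable at this depth. Summed, the miR164 targets had 10 counts in ein5-1 ski2-3, against 5 in Col-0, whereas the miR172 targets had 164 in ein5-1 ski2-3, against 20 in Col-0. Of the miR172 counts, TOE1 gave 116 in ein5-1 ski2-3 and 7 in Col-0, and TOE2 gave 34 and 7. Without TOE1 and TOE2, the other 7 members had 24 counts in ein5-1 ski2-3 and 11 in Col-0. The difference between the families therefore rests on TOE1 and TOE2.

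**Figure D2:**
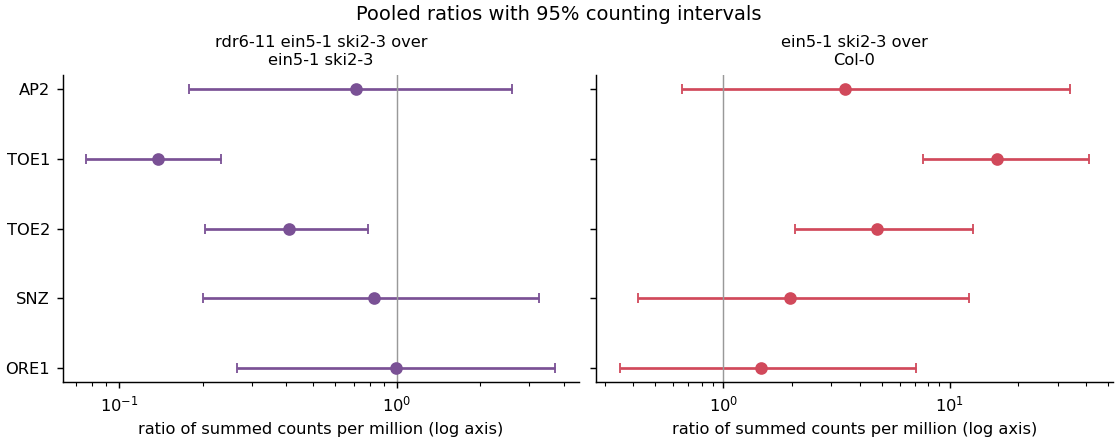
Ratios of counts summed over libraries and divided by total counts, without TMM (x axis, log scale), for 5 members. Each had more than 3 counts in at least 1 genotype of both comparisons. These are the triple mutant over ein5-1 ski2-3 (left) and ein5-1 ski2-3 over Col-0 (right), with exact 95% counting intervals as bars. TOE1 (0.138 and 16.2) and TOE2 (0.411 and 4.76) have intervals that leave out 1 in both panels, and AP2, SNZ and ORE1 do not. A ratio of 1 is not the level of a typical gene on this scale. By total counts, the median log2 change of all tested genes was -0.64 in the left comparison and 1.1 in the right. TOE2 did not pass edgeR's test with TMM in either (adjusted p = 0.327 and 0.0724).

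The dependence of these small RNAs on RDR6 was addressed by the triple mutant against ein5-1 ski2-3, a comparison that shares its ein5-1 ski2-3 libraries with the preceding one. TOE1 had 5, 5 and 6 counts in the triple mutant, against 49, 33 and 34 counts in ein5-1 ski2-3. The groups did not overlap. Its mean was 1.99 ± 0.218 CPM in the triple mutant (SD, n = 3), against 10.3 ± 1.60 CPM in ein5-1 ski2-3 (SD, n = 2). TOE1 fell by 2.38 ± 0.32 on the log2 scale (SE; 95% interval -3.03 to -1.74; edgeR quasi-likelihood adjusted p = 3.19e-08). It was 1 of 1 member tested, and 27% of all genes tested were called lower and 14.4% higher (41.3% in either direction), with a median log2 change of -0.21. The leaf markers summed to 2498 to 2728 counts in the triple mutant and 1968 to 2325 in ein5-1 ski2-3, with 4 of 5 higher and 0 lower in the triple mutant (median log2 change 0.85; by total counts 3 higher and 1 lower, median 0.43), and their part in the TOE1 value was not tested. Without the filter its log2 change was -2.46 (edgeR adjusted p = 2.15e-10), where 6.78% of genes were called lower (9.1% in either direction) and no other member was called. The authors' deposited table gives the inverse ratio, 5.23 for ein5-1 ski2-3 over the triple mutant, with an adjusted p of 1.35e-05.

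TOE2 had 2, 5 and 7 counts in the triple mutant, against 11, 16 and 7 counts in ein5-1 ski2-3. The highest triple-mutant library equalled the lowest ein5-1 ski2-3 library. The pooled ratio was 0.411 (counting interval 0.204 to 0.786), and the TMM log2 change of -0.89 ± 0.48 (SE) did not pass the test (edgeR adjusted p = 0.327). AP2 had 2, 3 and 0 counts in the triple mutant, against 0, 1 and 6 in ein5-1 ski2-3, with a ratio of 0.712 (0.178 to 2.61). SNZ had 1, 3 and 1 counts in the triple mutant, against 1, 2 and 3 in ein5-1 ski2-3, with a ratio of 0.831 (0.201 to 3.27). Both pairs of groups overlapped.

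ORE1, the senescence regulator, had 1, 2 and 3 counts in the triple mutant, against 4, 2 and 0 in ein5-1 ski2-3, with a ratio of 0.997 (0.267 to 3.73). NAC1 had 1, 2 and 1 counts in the triple mutant, against 1, 1 and 0 in ein5-1 ski2-3, and its ratio of 1.99 had an interval of 0.286 to 22.0. CUC2 had 0, 0 and 3 counts in the triple mutant, against 0, 1 and 1 in ein5-1 ski2-3. SMZ and CUC1 had 0 counts in all 3 triple-mutant libraries, while ein5-1 ski2-3 had 1 count for SMZ and 0 for CUC1 over its 3 libraries. The summed miR164 targets had 13 counts in the triple mutant (exact 95% interval 6.92 to 22.2), against 10 in ein5-1 ski2-3 (4.80 to 18.4). Those intervals overlapped, whereas the summed miR172 targets had 40 counts in the triple mutant (28.6 to 54.5), against 164 in ein5-1 ski2-3 (140 to 191). Here too TOE1 and TOE2 carried the difference, with 16 and 14 counts in the triple mutant and 116 and 34 in ein5-1 ski2-3. The other 7 members had 23 counts in the triple mutant and 24 in ein5-1 ski2-3.

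RDR6 loss with decay intact was examined in rdr6-11 against Col-0. TOE1 had 1, 2 and 4 counts in rdr6-11, against 3, 2 and 2 counts in Col-0. The groups overlapped, and the means were 0.821 ± 0.555 CPM in rdr6-11 and 1.16 ± 0.256 CPM in Col-0 (SD, n = 3 each). The log2 change of -0.48 ± 0.71 (SE; 95% interval -1.92 to 0.95) did not pass the test (edgeR adjusted p = 0.646). Thus 0 of 1 member tested was called, where 36.6% of all genes tested were called (21.3% higher, 15.3% lower); its unadjusted p was 0.514 by edgeR, and DESeq2 called 0 as well. TOE2 had 2, 0 and 0 counts in rdr6-11, against 5, 1 and 1 in Col-0, a ratio of 0.278 (0.0282 to 1.46). AP2 (1, 0 and 1 counts in rdr6-11, against 1, 0 and 1 in Col-0) and ORE1 (1, 2 and 1 in rdr6-11, against 3, 1 and 0 in Col-0) had overlapping groups.

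SNZ had 0, 2 and 3 counts in rdr6-11, against 1, 0 and 2 in Col-0, a ratio of 1.62 (0.316 to 10.5). SMZ had 1, 1 and 1 counts in rdr6-11, against 0, 1 and 0 in Col-0. CUC1 was counted in rdr6-11 only, with 1, 1 and 0 counts, against 0 in all Col-0 libraries. Its 2 counts lie under the floor of 3 counts. CUC2 had 0, 1 and 0 counts in rdr6-11, against 0 in Col-0, and NAC1 had 0, 1 and 0 in rdr6-11, against 0, 0 and 1 in Col-0. With TMM scaling and no filter, 0 of 9 were called by edgeR (1 at an unadjusted p under 0.05, TOE2 at 0.0465), where 7.53% of the 29938 genes were. Scaled to MIR genes, TOE2 was called lower in rdr6-11 in that fit (log2 change -2.75, edgeR adjusted p = 0.0430).

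The effect of decay loss without RDR6 was read from the triple mutant against rdr6-11. TOE1 had 5, 5 and 6 counts in the triple mutant, against 1, 2 and 4 in rdr6-11. The groups did not overlap, with means of 1.99 ± 0.218 CPM in the triple mutant and 0.821 ± 0.555 CPM in rdr6-11 (SD, n = 3 each). The log2 change was 1.24 ± 0.59 (SE; 95% interval 0.07 to 2.42), which did not pass the threshold after adjustment (edgeR unadjusted p = 0.0400, adjusted p = 0.0777), so 0 of 1 member tested was called, where 45.6% of all genes tested were (20.4% higher, 25.2% lower). Scaled to MIR genes it passed with a log2 change of 2.58 (edgeR adjusted p = 0.000103), as it did without rdr6-11 replicate 3 (1.84, adjusted p = 0.0438). DESeq2 called 0 members.

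TOE2 had 2, 5 and 7 counts in the triple mutant, against 2, 0 and 0 in rdr6-11. The lowest triple-mutant library equalled the highest rdr6-11 library. The pooled ratio was 7.02 (counting interval 1.61 to 63.6). Without the filter on low counts TOE2 was called higher, with a log2 change of 2.60 ± 0.87 (SE; edgeR adjusted p = 0.0340), 1 of 9 members where 3.1% of the 29938 genes were called higher (9.16% in either direction). That call was lost when any of 5 libraries was left out, namely rdr6-11 replicate 2 (edgeR adjusted p = 0.203) or 3 (0.186), triple-mutant replicate 2 (0.0860) or 3 (0.221), or ein5-1 ski2-3 replicate 1 (0.0752). DESeq2 without the filter did not make the call, since it gave TOE2 no adjusted p there. AP2 had 5 counts in the triple mutant, against 2 in rdr6-11, with a ratio of 2.51 (0.410 to 26.3), and SNZ and ORE1 had intervals that included 1 as well.

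Against Col-0 the triple mutant had 16 TOE1 counts, against 7 in Col-0. By library these were 5, 5 and 6 in the triple mutant, against 3, 2 and 2 in Col-0, and the groups did not overlap. The log2 change of 0.76 ± 0.60 (SE; 95% interval -0.44 to 1.96) did not pass the test (edgeR unadjusted p = 0.219, adjusted p = 0.468), and 0 of 1 member tested was called, by DESeq2 as well, where 18.3% of all genes tested were called (8.78% higher, 9.52% lower). With no filter 0 of 9 were called by edgeR (0 at an unadjusted p under 0.05), where 3.73% of the 29938 genes were. TOE2 had 2, 5 and 7 counts in the triple mutant, against 5, 1 and 1 in Col-0, and these overlapped. Its pooled ratio was 1.95 (0.738 to 5.72).

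The interaction compares the effect of RDR6 loss in ein5-1 ski2-3 with its effect in Col-0. For TOE1 the difference of log2 changes was -1.90 ± 0.84 (SE; 95% interval -3.59 to -0.20), just outside the threshold (edgeR unadjusted p = 0.0289, adjusted p = 0.0549). It was 0 of 1 member tested, where 51.5% of all genes tested were called (19.9% higher, 31.7% lower), and DESeq2 called 0. The value passed by total counts (-2.78, edgeR adjusted p = 0.00563), with a stricter minimum count of 30 (-1.94, adjusted p = 0.0334) and without rdr6-11 replicate 1 (-2.25, adjusted p = 0.0306). The TOE1 levels of rdr6-11 and Col-0 rested on 7 counts each. For TOE2, without the filter, the interaction was 1.13 ± 1.1 (SE; edgeR adjusted p = 0.702), and 0 of 9 members were called (1 at an unadjusted p under 0.05, TOE1), where 11.3% of the 29938 genes were.

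The split of calls over all genes turned on the scaling. By total counts, 4448 genes were called higher and 255 lower in ein5-1 ski2-3 than in Col-0, instead of 2202 and 1357, and 274 higher and 3474 lower in the triple mutant than in ein5-1 ski2-3, instead of 1037 and 1946. Scaled to MIR genes, 50 were higher and 2799 lower in rdr6-11 than in Col-0, instead of 1539 and 1106, and 5418 higher and 16 lower in the triple mutant than in rdr6-11, instead of 1473 and 1819. That scaling also gave 2517 higher and 120 lower in the triple mutant than in Col-0, instead of 634 and 687, and 2624 and 433 for the interaction, instead of 1435 and 2286, which total counts turned to 331 and 3431. The TOE1 calls of the first pair of comparisons held under both scalings.

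**Figure D3:**
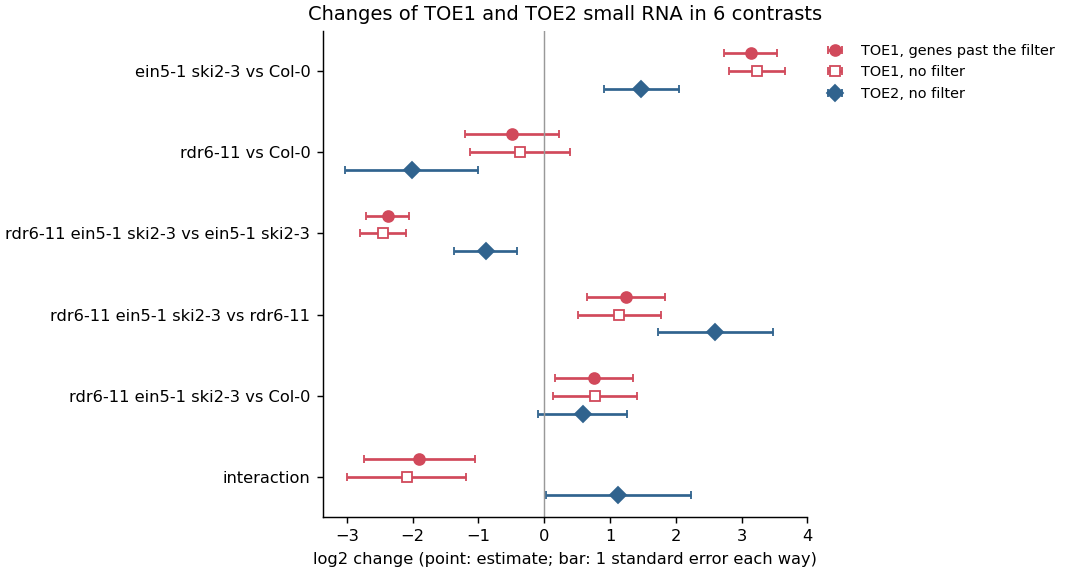
Log2 changes (x axis) of TOE1 among genes past the count filter (filled circles), and of TOE1 (open squares) and TOE2 (diamonds) with no filter, in 5 comparisons and the interaction (y axis); bars are 1 standard error each way. TOE1 lies at 3.14 in ein5-1 ski2-3 over Col-0 and at -2.38 in the triple mutant over ein5-1 ski2-3, the 2 contrasts in which it passed the test.

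Per kilobase of exon, TOE1 had a mean level of 0.756 CPM in the triple mutant, 3.90 in ein5-1 ski2-3, 0.312 in rdr6-11 and 0.440 in Col-0. On the same scale TOE2 had 0.583 in the triple mutant, 0.945 in ein5-1 ski2-3, 0.0797 in rdr6-11 and 0.382 in Col-0. TOE1 was the highest of the 9 members per kilobase in ein5-1 ski2-3, above TOE2 with no overlap of samples. The order below it, TOE2 at 0.945, AP2 at 0.439, SNZ at 0.365 and ORE1 at 0.318 CPM per kilobase, rests on 6 to 34 counts per gene, and the per-sample spread of each overlapped that of its neighbour. In Col-0 ORE1 (0.505), TOE1 (0.440) and TOE2 (0.382 CPM per kilobase) stood together and did not differ beyond their spread.

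TOE1 levels, as log2 of CPM plus 1 over the 11 samples, were most like those of 3 protein-coding genes among 4207 others that passed the filter. PXY (AT5G61480), a receptor kinase of the vascular cambium, had a Pearson correlation of 0.975 with TOE1. PXY had 7, 11 and 13 counts in the triple mutant, 270, 287 and 224 in ein5-1 ski2-3, 2, 6 and 4 in rdr6-11, and 5, 6 and 3 in Col-0. CARAB-AK-LYS (AT5G14060) had 0.974 and AT1G20070 had 0.971, and 37 genes exceeded 0.95. These samples share their libraries and genotypes, and the correlation is a description of that pattern.

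The 3 other targets of the same miRNAs had low counts too. TOE3, an AP2-like gene with a miR172 site, had 1, 0 and 1 counts in the triple mutant, 0, 3 and 2 in ein5-1 ski2-3, 0, 3 and 3 in rdr6-11, and 2, 1 and 0 in Col-0. NAC080 and NAC100, both with miR164 sites, had at most 2 counts in a library. CUC3, the boundary gene related to CUC1 and CUC2, is not a known miR164 target; its best window had 6 mismatches and 2 G:U pairs, and it had 1 count summed over the 12 libraries.

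MIR172a, MIR172c, MIR172d and MIR172e had more counts than any member in every genotype. MIR172b did not, with 30 counts in ein5-1 ski2-3, against 116 for TOE1 and 34 for TOE2. MIR172a had 215, 183 and 137 counts in the triple mutant, 231, 213 and 158 in ein5-1 ski2-3, 702, 756 and 783 in rdr6-11, and 299, 246 and 279 in Col-0. The libraries of ein5-1 ski2-3 lay below those of Col-0, and those of rdr6-11 above all others. In CPM the means were 66.6 ± 15.2 in the triple mutant, 52.1 ± 13.6 in ein5-1 ski2-3, 262 ± 16.8 in rdr6-11 and 136 ± 6.34 in Col-0 (SD, n = 2 in ein5-1 ski2-3 and 3 elsewhere). MIR172a was lower in ein5-1 ski2-3 than in Col-0, with a log2 change of -1.36 ± 0.14 (SE; edgeR adjusted p = 5.23e-12). The value was -0.54 when libraries were scaled by total counts only and was -0.93 when scaled to MIR genes. It was higher in rdr6-11 than in Col-0 by 0.94 ± 0.12 on the log2 scale (SE; edgeR adjusted p = 2.32e-09), but by 0.17 (adjusted p = 0.386) when scaled to MIR genes.

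All 5 MIR172 genes were called lower in ein5-1 ski2-3 than in Col-0 by edgeR, where 18.8% of all genes tested were called lower. Their log2 changes lay between -1.38 (MIR172c and MIR172d) and -1.27 (MIR172b). MIR172b lost its call by total counts (-0.45, edgeR adjusted p = 0.272). All 5 were also lower in the triple mutant than in rdr6-11, where 25.2% of all genes tested were called lower. Their log2 changes lay between -2.02 for MIR172c and -1.01 for MIR172b, except that MIR172b reversed to 0.38 when scaled to MIR genes. The MIR172b call was also lost by DESeq2 (adjusted p = 0.0518) and without rdr6-11 replicate 3 (edgeR adjusted p = 0.0512). The triple mutant did not pass the test against ein5-1 ski2-3 for MIR172a (0.32 ± 0.14, SE; edgeR adjusted p = 0.0604). MIR genes held 1.92% to 2.18% of counts in the triple mutant, 2.43% to 3.69% in ein5-1 ski2-3, 5.29% to 6.09% in rdr6-11 and 2.29% to 2.45% in Col-0, and their part in the MIR172 values was not tested beyond that scaling.

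MIR172c and MIR172d had the same or nearly the same count in every library, so their calls are not separate results. MIR172a and MIR172b encode 1 identical mature sequence but differed in count, with 299, 246 and 279 for MIR172a in Col-0 and 16, 11 and 13 for MIR172b. The copy behind such reads is therefore unknown, and a MIR gene count is not the level of a mature miRNA.

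The MIR164 genes were counted almost only at MIR164c, with 45, 38 and 45 counts in the triple mutant, 74, 82 and 75 in ein5-1 ski2-3, 119, 112 and 137 in rdr6-11, and 42, 47 and 52 in Col-0. MIR164a had 0 counts in every library and MIR164b at most 3. MIR164c was higher in rdr6-11 than in Col-0 by 0.88 ± 0.16 on the log2 scale (SE; edgeR adjusted p = 1.04e-05), but 0.11 (adjusted p = 0.696) scaled to MIR genes. Against Col-0, ein5-1 ski2-3 showed -0.15 ± 0.18 (SE; edgeR adjusted p = 0.494), a direction that turned to 0.66 (adjusted p = 0.0020) by total counts and to 0.30 (adjusted p = 0.240) when scaled to MIR genes. In the triple mutant MIR164c was lower than in rdr6-11 by edgeR (log2 change -1.43, adjusted p = 2.82e-10), a value that shrank to -0.042 when scaled to MIR genes.

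**Figure D4:**
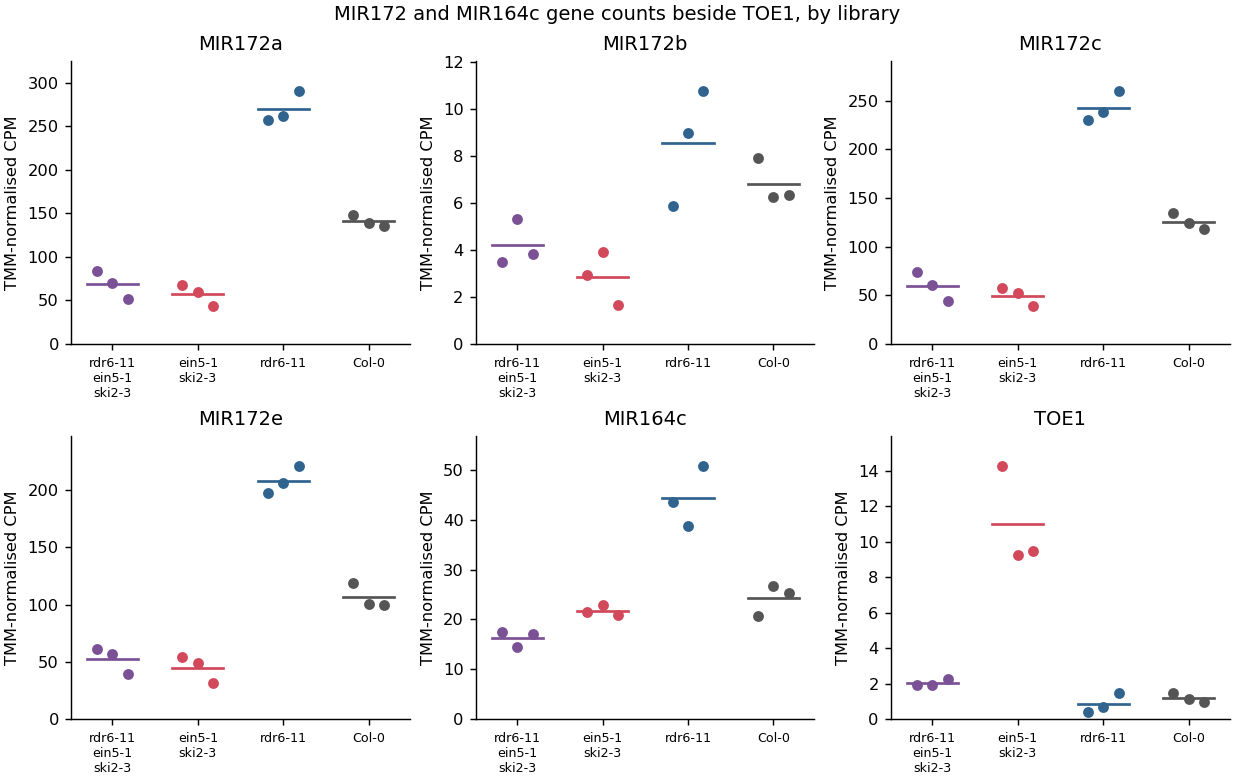
TMM-normalised CPM (y axis) of MIR172a, MIR172b, MIR172c, MIR172e, MIR164c and TOE1 in each library of the 4 genotypes (x axis); points are replicates 1 to 3 from left to right and lines are means. MIR172a, MIR172c and MIR172e are lowest in the 2 genotypes that carry ein5-1 ski2-3, and TOE1 is high in ein5-1 ski2-3 alone.

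Of 15 genes known from the flowering pathway of the AP2-like factors, 4 passed the count filter. Against Col-0, 2 were higher in ein5-1 ski2-3 and 0 lower, where 30.5% of all genes tested were higher and 18.8% lower. The median log2 change of the 4 was 0.40, beside 0.29 for all genes tested. TEM2, a repressor of FT, had 66, 77 and 69 counts in ein5-1 ski2-3, against 7, 4 and 4 in Col-0, and rose by 2.94 ± 0.30 on the log2 scale (SE; edgeR adjusted p = 7.28e-12). Its relative TEM1 had 34, 31 and 31 counts in ein5-1 ski2-3, against 9, 9 and 5 in Col-0, and rose by 1.19 ± 0.31 (SE; edgeR adjusted p = 0.00119). TEM1 missed the threshold by DESeq2 (adjusted p = 0.0565) and without the summed ein5-1 ski2-3 replicates 1 and 2 (edgeR adjusted p = 0.0684). The corepressor TPL (-0.39) and the MADS repressor SVP (-0.60) did not pass.

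In the triple mutant TEM2 had 34, 25 and 20 counts, against the 66, 77 and 69 of ein5-1 ski2-3, and fell by 0.97 ± 0.21 on the log2 scale (SE; edgeR adjusted p = 0.000154). It was the 1 gene of the 4 that passed there, where 27% of all genes tested were lower (41.3% in either direction). TEM2 had been called higher in these same ein5-1 ski2-3 libraries, so a fall was favoured beforehand. TEM2 in the triple mutant was still above the 12, 14 and 18 counts of rdr6-11, with a log2 change of 0.93 ± 0.27 (SE; edgeR adjusted p = 0.00467), though not without triple-mutant replicate 1 (adjusted p = 0.0632). TPL was the other gene called in that comparison, where 20.4% of all genes tested were higher (45.6% in either direction). It had 12, 18 and 15 counts in the triple mutant, against 11, 6 and 8 in rdr6-11 (0.93 ± 0.35 SE, edgeR adjusted p = 0.0254). That call was lost by DESeq2 (adjusted p = 0.120), with no filter (0.182), and by edgeR without rdr6-11 replicate 2 (0.147) or 3 (0.0658) or triple-mutant replicate 2 (0.111) or 3 (0.0535). TEM2 was the 1 gene called against Col-0 in the other mutants, where 18.3% of all genes tested were called in the triple mutant and 36.6% in rdr6-11. It was higher in the triple mutant by 1.97 ± 0.35 SE on the log2 scale (edgeR adjusted p = 1.69e-05). In rdr6-11 it had 12, 14 and 18 counts, against 7, 4 and 4 in Col-0 (1.04 ± 0.40, SE; edgeR adjusted p = 0.0374). That call was lost by DESeq2 (0.0898), scaled to MIR genes (0.640) and by edgeR without Col-0 replicate 2 (0.0986) or 3 (0.148) or rdr6-11 replicate 3 (0.144). It was lost by edgeR without rRNA, tRNA and organelle genes (0.0853) and with no filter (0.0643) as well. The remaining 11 genes of the list, among them FT, SOC1, FLC and SPL9, had too few counts to be tested.

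Of 14 genes from the boundary, lateral root and senescence pathways of the NAC factors, 5 passed the filter and 3 were higher in ein5-1 ski2-3 than in Col-0, with 0 lower, where 30.5% of all genes tested were higher and 18.8% lower. TCP4 had over 7 counts in ein5-1 ski2-3 alone and so passed the filter through that genotype, which leaves 2 called of the other 4. TIR1, the auxin receptor that acts upstream of NAC1, had 44, 48 and 36 counts in ein5-1 ski2-3, against 4, 8 and 7 in Col-0 (log2 change 1.87 ± 0.33, SE; edgeR adjusted p = 4.07e-06). TCP4, which encodes a leaf growth regulator and is itself a miR319 target, had 25, 20 and 20 counts in ein5-1 ski2-3, against 4, 3 and 4 in Col-0 (1.68 ± 0.42, SE; edgeR adjusted p = 0.000654). GLK1, a chloroplast development factor that ORE1 protein opposes, had 44, 42 and 58 counts in ein5-1 ski2-3, against 4, 11 and 9 in Col-0 (1.74 ± 0.30, SE; edgeR adjusted p = 3.29e-06). EIN2 (-0.12) and EIN3 (0.57), which act upstream of ORE1 in ethylene signalling, did not pass. TCP4 missed the threshold without the summed ein5-1 ski2-3 replicates 1 and 2 (1.33, edgeR adjusted p = 0.0634).

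The same 3 genes fell in the triple mutant relative to ein5-1 ski2-3, where 27% of all genes tested were lower. They had been called higher in these same ein5-1 ski2-3 libraries, so a fall was favoured beforehand. TCP4 also passed the filter through ein5-1 ski2-3 alone, so its call by itself says nothing about the list. TIR1 had 9, 17 and 15 counts in the triple mutant and fell by 1.18 ± 0.27 on the log2 scale (SE; edgeR adjusted p = 0.000401). TCP4 had 5, 6 and 7 counts there and fell by 1.39 ± 0.36 (SE; edgeR adjusted p = 0.00175). GLK1 had 15, 25 and 23 counts there and fell by 0.77 ± 0.24 (SE; edgeR adjusted p = 0.00861). That call was lost by DESeq2 (adjusted p = 0.197) and by edgeR scaled to MIR genes (-0.64, 0.103). It was also lost by edgeR without rdr6-11 replicate 2 (0.0508) or triple-mutant replicate 1 (0.0689). Without ein5-1 ski2-3 replicate 3, which leaves 1 sample of that genotype, the log2 change of GLK1 was -0.38. DESeq2 also missed the threshold for TCP4 (adjusted p = 0.110) and TIR1 (0.0701), and leaving out the summed ein5-1 ski2-3 replicates 1 and 2 ended both calls (edgeR adjusted p = 0.135 and 0.136). GLK1 was higher in the triple mutant than in rdr6-11 (1.36 ± 0.33 SE, edgeR adjusted p = 0.000963). It was the 1 of 5 called there, where 20.4% of all genes tested were higher (45.6% in either direction). It was also the 1 called in the triple mutant against Col-0 (0.97 ± 0.34 SE, edgeR adjusted p = 0.0390), where 8.78% of all genes tested were higher (18.3% in either direction). DESeq2 did not call it (adjusted p = 0.170), nor did edgeR without Col-0 replicate 1 (0.292) or 3 (0.0855) or triple-mutant replicate 2 (0.140) or 3 (0.110). The call was also lost by edgeR without rRNA, tRNA and organelle genes (0.0935) and with no filter (0.101). In rdr6-11 against Col-0, 0 of the 5 were called by edgeR, with 0 at an unadjusted p under 0.05, and 0 by DESeq2, which gave TCP4 no adjusted p. Of all genes tested, 36.6% were called there by edgeR.

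LAS, a boundary gene that acts with the CUC factors, did not pass the filter. It had 0, 1 and 1 counts in the triple mutant, 10, 3 and 7 in ein5-1 ski2-3, 0 in all rdr6-11 libraries and 0 in all Col-0 libraries. GLK2, the paralogue of GLK1, had 4, 7 and 10 counts in the triple mutant, 9, 9 and 4 in ein5-1 ski2-3, 3, 3 and 4 in rdr6-11, and 3, 4 and 3 in Col-0. LAS counts of ein5-1 ski2-3 lay above those of the other genotypes, and GLK2 counts of ein5-1 ski2-3 overlapped those of every other genotype.

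**Figure D5:**
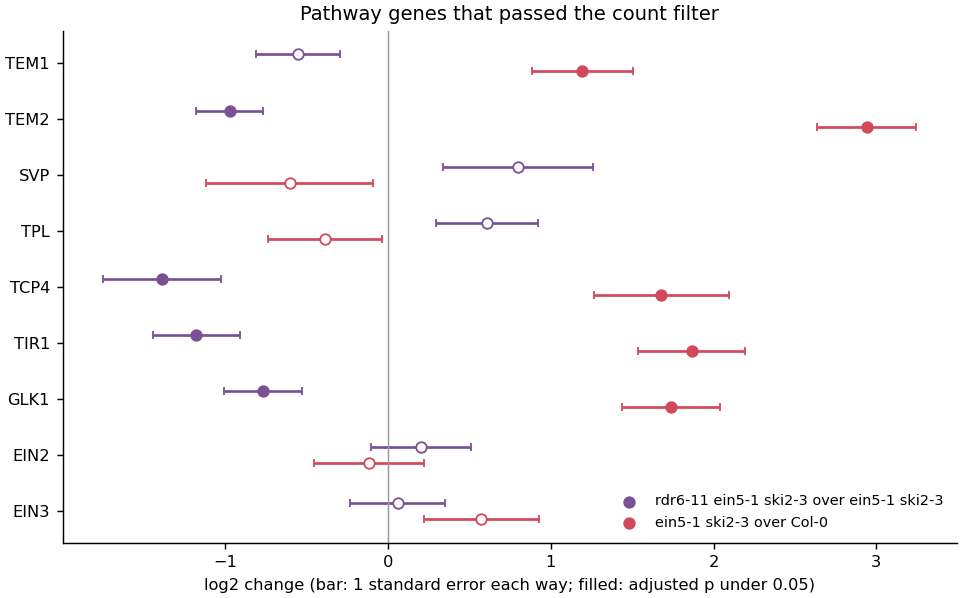
Log2 changes (x axis) of the 9 pathway genes that passed the count filter (y axis), for the triple mutant over ein5-1 ski2-3 (purple) and ein5-1 ski2-3 over Col-0 (red); bars are 1 standard error each way and filled points have an adjusted p under 0.05. TEM2, TCP4, TIR1 and GLK1 are filled on both sides of 0, from 2.94 for TEM2 in ein5-1 ski2-3 to -1.39 for TCP4 in the triple mutant. Both comparisons share the ein5-1 ski2-3 libraries.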

How the data were processed

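Reads of small RNA from 12 libraries were counted per gene model by the authors, and whole-number counts as deposited were the main data. The authors' fold changes are ratios of group means over DESeq size factors, and the authors' p-values are DESeq's adjusted ones, both as deposited. Per the submitters' processing notes the tools were CASAVA (1.8.2), Bowtie with Bowtie2 and DESeq, on TAIR10; no settings are given. Trimming, strand and the treatment of multiply mapped reads are not given in the sources used here, so siRNAs, miRNAs and fragments of longer RNA were counted together.

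The 9 members and the gene lists were chosen with earlier results of these data known. All members are named, with the MIR172 and MIR164 genes, TOE3, NAC080, NAC100 and CUC3. Pathway genes are named if called or with 10 counts in a library, and the 3 genes most correlated with each member tested are named.

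The counts went into edgeR 4.0.16 under R 4.3.3 (TMM, filterByExpr with minimum count 10 and minimum total 15, 2-sided quasi-likelihood F tests), in 1 fit of 11 samples with genotype as the only term. The threshold for a call was 0.05, after Benjamini-Hochberg adjustment across 7219 genes. On counts simulated for ein5-1 ski2-3 against Col-0, 50 genes were changed at each size among 6887 tested. There the fit called 100% of 4-fold rises, 54% of 2-fold rises, 64% of falls to 0.25 and 34% of falls to 0.5. It made 6 false calls. In the deposited counts, 49.3% of the genes tested were called in that comparison. Recovery and false calls at such a share were not tested. Members under the filter were described by counts, exact 95% intervals and a floor of 3 counts over a group. Replicate numbers were not taken to pair libraries: 0 of 18 same-numbered pairs of libraries had a correlation of residuals above 0.1 (range -0.15 to 0.0514). Counting noise in genes of few counts could hide a pairing from this check. Alternatives were RLE, total-count and MIR-gene scaling, exclusion of rRNA, tRNA and organelle genes, other filters, DESeq2 1.42.0, unsummed libraries, a replicate block and leaving out libraries. Sequences, gene names and coordinates came from RefSeq TAIR10.1, in which 30403 of 30926 genes were found.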

Additional observations from a re-analysis of the deposited data

Results flagged for a closer look

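The effect of RDR6 loss differed between ein5-1 ski2-3 and Col-0 for 8 of the 15 MIR172, MIR164 and pathway genes tested (53.3%), by the interaction term of the fit (edgeR quasi-likelihood test, adjusted p under 0.05). The values are the log2 change of the triple mutant over ein5-1 ski2-3 minus that of rdr6-11 over Col-0, and 51.5% of all genes tested passed this test, a share near that of the 15. Among repressors of the flowering pathway it was -2.01 for TEM2 and 1.32 for the corepressor TPL. For the auxin receptor gene TIR1 it was -1.28. It was -0.62 for MIR172a, -0.64 for MIR172c, -0.64 for MIR172d and -0.67 for MIR172e, and -1.28 for MIR164c. MIR172c and MIR172d had the same or nearly the same counts, so the 8 are not all separate results. The interactions of the 4 MIR172 genes reversed when scaled to MIR genes and lost their call by DESeq2, without rRNA, tRNA and organelle genes, and without ein5-1 ski2-3 replicates 1 and 2. MIR164c shrank to -0.34 (adjusted p = 0.349) and TEM2 to -1.09 (0.0634) when scaled to MIR genes. TPL shrank to 0.41 (adjusted p = 0.519) by total counts and lost its call with no filter (1.11, 0.215), by DESeq2 (0.0813) and by edgeR without Col-0 replicate 1 (0.0796) or 3 (0.0547) or triple-mutant replicate 2 (0.0641). TIR1 shrank to -0.32 (adjusted p = 0.676) when scaled to MIR genes, and lost its call with RLE factors (0.0541), without rRNA, tRNA and organelle genes (0.0764), by DESeq2 (0.182) and when Col-0 replicate 1 or 3, ein5-1 ski2-3 replicate 2 or 3, rdr6-11 replicate 2 or 3, or triple-mutant replicate 1 was left out. What lies behind these values was not tested. TOE1, the member with the most counts, had an interaction of -1.90 that missed the threshold (edgeR adjusted p = 0.0549).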

How the results depend on the processing

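The rise of TOE1 in ein5-1 ski2-3 over Col-0 (log2 change 2.72 to 3.94 over 23 alternatives) and its fall in the triple mutant (-2.82 to -1.98) kept their direction and call in every alternative run. For the triple mutant against rdr6-11, the number of members called, 0, became 1 when libraries were scaled to MIR genes (TOE1) and with no filter on low counts (TOE2), and lay between 0 and 1 when libraries were left out. For the interaction, 0 became 1 (TOE1) by total counts and with a minimum count of 30, and lay between 0 and 1 when libraries were left out. Scaling to MIR genes reversed 6 of 1256 values: the interaction of MIR172a (0.34), MIR172c (0.31), MIR172d (0.31) and MIR172e (0.30), MIR164c in the triple mutant over Col-0 (0.066) and MIR172b in the triple mutant over rdr6-11 (0.38). The construction of that scaling, which sets the summed MIR counts equal, moved the median of all genes in rdr6-11 over Col-0 to -0.77. Without the summed ein5-1 ski2-3 replicates 1 and 2 the interactions of MIR172a (-0.12), MIR172c (-0.16), MIR172d (-0.16), MIR172e (-0.048) and TIR1 (-0.85) lost their call. The 6 values reversed by scaling to MIR genes lost their call there too. Of the other values 86 lost a call, the interactions just named among them, and 10 gained one. The cause was not tested. With the replicate number as a block and 12 libraries, TOE1 changed by 3.15 in ein5-1 ski2-3 over Col-0 and by -2.40 in the triple mutant over ein5-1 ski2-3 (edgeR adjusted p = 2.47e-10 and 2.71e-09), and the block changed no count of members called. With only the genotypes compared, no member passed the filter in 3 comparisons, which have no value there. Depth limits the 8 members other than TOE1: none exceeded 16 counts in a library, and an absence of calls for them does not show that they were unchanged.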
